A study of Mus musculus with 6 samples.

Results

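The apolipoprotein genes Apom, Apoc2, Apoc1, Apoc3, Apoe, Apob, Apod, Apoa1 and Apoh, together with the lipoprotein lipase gene Lpl, were followed probe by probe in renal cortex of mice. The members were all non-control probes that carried one of these 10 of 37074 gene names in the scanner output, which gave 21 of the 56605 non-control probes. The genes had been selected on their measured differences between these groups, so those differences are given below as a description and without a test. Total RNA of 6 cortex samples was labelled with Cy3 and hybridised to 1-colour Agilent arrays, 3 for each group. The samples labelled db/m and the samples labelled db/db both came from male mice 16 weeks old. In the genotype nomenclature, db/m mice carry 1 intact copy of the leptin receptor gene and db/db mice carry none and become obese and diabetic. The label of the source calls the db/m samples controls, whereas the methods of the study describe arrays of db/db mice given Huangqi Decoction (HQD), a herbal formula, or left untreated, after 8 weeks of gavage. The labels therefore do not settle whether the contrast is between genotypes or between treatments, the HQD dose behind the arrays is not given in the sources used here, and the groups are called labelled db/m and labelled db/db throughout. The methods count 3 mice per group, and each array is taken as 1 animal.

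Apolipoproteins are the protein part of the particles that carry fat and cholesterol in plasma. Apob is the scaffold of chylomicrons and very low density lipoproteins, Apoa1 is the scaffold of high density lipoprotein (HDL), and Apoe is the ligand by which remnant particles bind receptors of the LDL receptor family. Apoc2 is the cofactor that lipoprotein lipase needs to cleave triglycerides, and Apoc1 and Apoc3 slow the clearance of particles. Apom and Apod are lipocalins that travel with HDL, and Apom carries sphingosine 1-phosphate. Liver makes most of these proteins, and proximal tubule cells of the kidney also express Apom and take up filtered apolipoproteins through megalin and cubilin. In bulk cortex, fewer cells of a type and less RNA per cell cannot be told apart.

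The array probes of the 3 genes on which the results turn are shown because each value below is a brightness at such an oligonucleotide. They are given 5′ to 3′ in lower case as in the scanner output, with coordinates on the mouse build mm9, and all lie on the minus strand. The Apom probe lies at chr17:35267047-35267106, the Apoc2 probe at chr7:20258597-20258656 and the Apoe probe at chr7:20281732-20281791.
Apom probe A_52_P150236: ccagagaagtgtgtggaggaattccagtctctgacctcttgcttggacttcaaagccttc
Apoc2 probe A_66_P130918: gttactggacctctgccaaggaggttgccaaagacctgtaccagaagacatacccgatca
Apoe probe A_51_P171999: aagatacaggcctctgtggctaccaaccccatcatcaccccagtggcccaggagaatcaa
Their GC content was 50% for Apom, 51.7% for Apoc2 and 55% for Apoe. The brighter Apoc2 probe, A_51_P334979, lies at chr7:20257027-20257086.

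Levels are log2 intensities against the 75th percentile of the same array, so that 0 is the 75th percentile, and differences are given as labelled db/m minus labelled db/db, in log2 units. Between 51.6% and 59.0% of the probes on an array were well above background. Of the 21 probes, 19 were well above background on every array of 1 or both groups and entered the limma fit with 29889 probes in all. They stood for 9 of the 10 genes, since Apoa1 had 1 probe and it was not well above background on any of the 6. Where a gene had several probes, the brightest one is its reference probe. The arrays lay on 3 slides, and slide 1 held labelled db/m replicate 1 with labelled db/db replicate 3, which gives 1 comparison within a slide. The other slides held 1 group each. Labelled db/m replicates 2 and 3 shared slide 2, and labelled db/db replicates 1 and 2 shared slide 3.

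Among the 9 genes, 7 had a lower mean in the arrays labelled db/m on the reference probe, and in 4 of them, Apom, Apoc2, Apoe and Apoh, the groups did not overlap. By probe, 6 of 19 were lower without overlap, beside 16.8% of all probes tested, and 1 was higher without overlap, beside 7.42%. A difference of -1 or below was present on 4 of the 19 probes, those of Apoc2 and Apoe, beside 0.244% of all probes, and one of 1 or above on 0, beside 1.34%. The selection used this contrast, so nothing is read from these shares. The median difference of the 9 reference probes was -0.59 on the log2 scale, and that of all probes was -0.04. Across all tested probes the median differed with brightness, from 0.15 in the 7473 dimmest probes to -0.15 in the 7472 brightest. A difference below 0 was present in 34.8% of the dimmest and in 77.8% of the brightest. Apom, Apoe, Apoc1, Apoc3, Apob and Lpl had reference probes among these brightest.

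**Figure D1:**
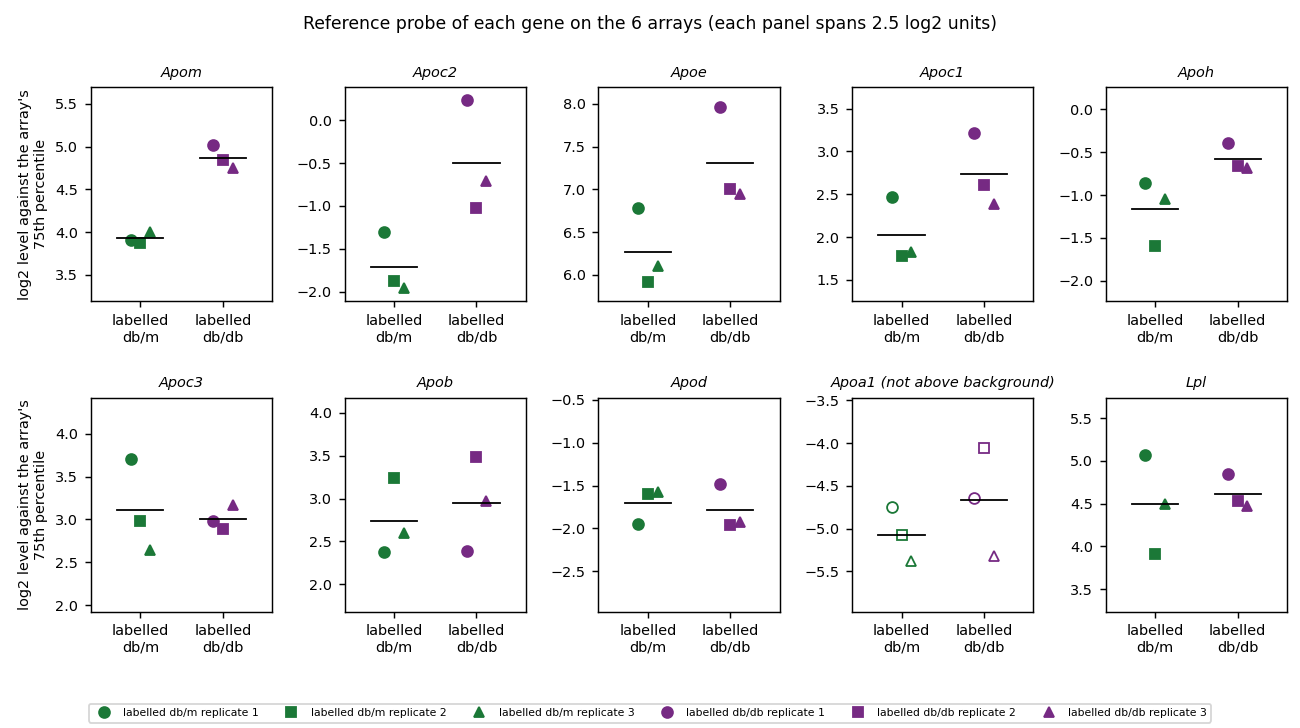
Log2 level of the reference probe of each gene against the 75th percentile of the array, with 1 point per array, 3 arrays per group, a line at the group mean and the same span of 2.5 log2 units in every panel. Open points mark Apoa1, whose probe was not well above background, and the Apom arrays form 2 groups that lie 0.75 apart.

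Apom, the lipocalin that carries sphingosine 1-phosphate on HDL, had log2 levels of 3.91, 3.87 and 4.0 in labelled db/m replicates 1, 2 and 3. In labelled db/db replicates 1, 2 and 3 the levels were 5.01, 4.84 and 4.75. All 3 arrays labelled db/m lay below all 3 arrays labelled db/db, and the gap between the groups was 0.75. The group means were 3.93 ± 0.07 (SD, n = 3) and 4.87 ± 0.13 (SD, n = 3), a difference of -0.94 (SE 0.12) or a 1.92-fold higher intensity in the arrays labelled db/db. Within slide 1 the difference was -0.84. With each array left out in turn it stayed between -1.0 and -0.87. Apom had the smallest spread within groups of the 4 genes without overlap, and 1 probe stands for it.

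The partner lipocalin Apod showed no such gap. Its tested probe, A_55_P2093286, printed 10 times on each array, had levels of -1.95, -1.60 and -1.57 in the arrays labelled db/m and -1.49, -1.96 and -1.92 in the arrays labelled db/db. The groups overlapped, with a difference of 0.08 (SE 0.18) that changed sign to -0.10 under median centring and to -0.01 after quantile normalization or in the deposited log2 matrix. The difference was -0.03 within slide 1 and 0.23 without labelled db/db replicate 1. A second Apod probe, A_51_P366811, was nowhere well above background.

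Of the C apolipoproteins, Apoc2 and Apoc1 had lower means in the arrays labelled db/m, and the probes of Apoc3 gave differences of either sign. Apoc2, the lipase cofactor, had reference levels of -1.31, -1.88 and -1.96 in labelled db/m replicates 1, 2 and 3. The labelled db/db replicates 1, 2 and 3 had 0.24, -1.02 and -0.71. The groups did not overlap, although the highest array labelled db/m and the lowest array labelled db/db were only 0.29 apart. The difference was -1.22 (SE 0.34), from means of -1.72 ± 0.36 and -0.50 ± 0.65 (SD, n = 3 each), and it corresponds to a 2.33-fold higher intensity in the arrays labelled db/db. The second Apoc2 probe, whose sequence is printed above, gave -3.73, -4.97 and -4.24 in the arrays labelled db/m and -1.78, -3.15 and -2.72 in the arrays labelled db/db. These groups did not overlap either, and the difference was -1.76 (SE 0.42). This dim probe was well above background on 2 of the 3 arrays labelled db/m. With that array raised to the lowest such signal the difference was -1.38, and with normexp background correction it was -0.97. Labelled db/db replicate 1 was the highest array on both probes. Within slide 1 the difference was -0.60 on the reference probe and -1.01 on the other, and without labelled db/db replicate 1 it was -0.85 and -1.38.

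Apoc1, an inhibitor of particle uptake encoded next to Apoe, had levels of 2.47, 1.78 and 1.83 in the arrays labelled db/m and 3.22, 2.60 and 2.39 in the arrays labelled db/db. The groups overlapped because labelled db/m replicate 1 lay above labelled db/db replicate 3. The difference was -0.71 (SE 0.27) over all 6 arrays. It was 0.08, with the sign turned, within slide 1, and -0.47 without labelled db/db replicate 1. Apoc3, an inhibitor of lipoprotein lipase, was measured by 3 probes. Its reference probe had levels of 3.71, 2.98 and 2.64 in the arrays labelled db/m and 2.98, 2.88 and 3.17 in the arrays labelled db/db. The groups overlapped on all 3 probes, with differences of 0.10 (SE 0.27), -0.07 (SE 0.31) and 0.35 (SE 0.41). The first of these changed sign to -0.08 under median centring, and the second to 0.01 after quantile normalization and in the deposited matrix. The third was -0.14 within slide 1 and between 0.07 and 0.73 with single arrays left out. Within slide 1 the reference probe of Apoc3 differed by 0.54, and without labelled db/m replicate 1 its difference turned to -0.20.

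**Figure D2:**
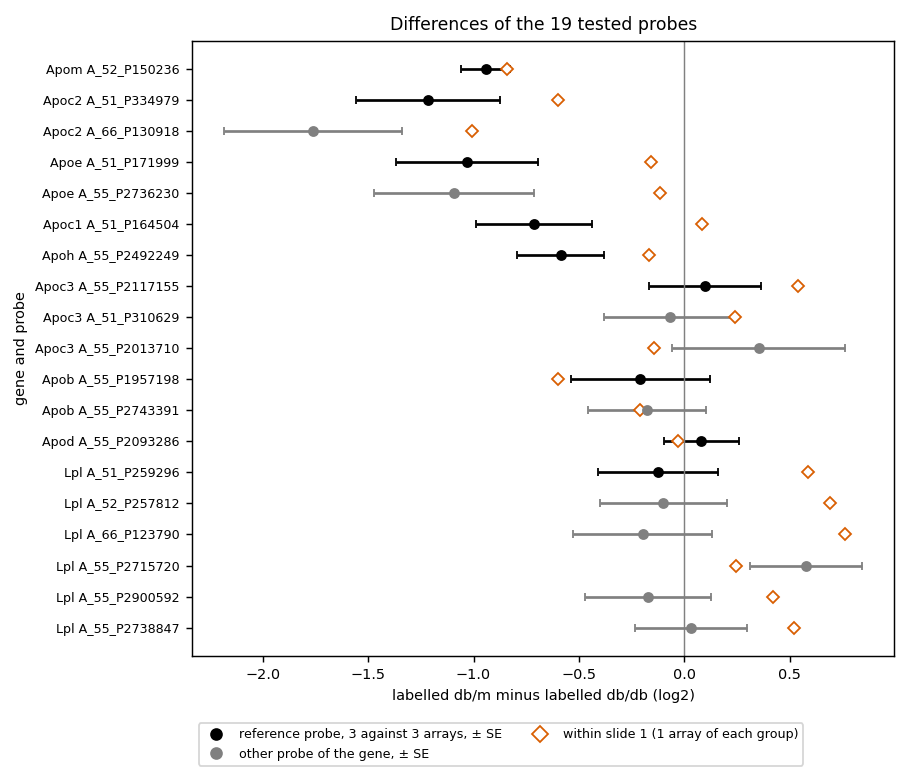
Difference between labelled db/m and labelled db/db on the log2 scale for each of the 19 tested probes, as points with bars of 1 SE (3 against 3 arrays). Open diamonds give the difference within slide 1 (1 array of each group). The diamond of Apom, at -0.84, lies close to its point at -0.94, and that of Apoe, at -0.16, lies far from its point at -1.03.

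Of the structural apolipoproteins, Apoe differed on both of its probes and Apob and Apoa1 did not separate the groups. The reference probe of Apoe, the receptor ligand of remnant particles, had levels of 6.79, 5.92 and 6.11 in labelled db/m replicates 1, 2 and 3. In labelled db/db replicates 1, 2 and 3 the levels were 7.96, 7.00 and 6.95. The groups did not overlap, but labelled db/m replicate 1 came within 0.16 of labelled db/db replicate 3, the array on its own slide. The means were 6.27 ± 0.46 and 7.30 ± 0.57 (SD, n = 3 each), a difference of -1.03 (SE 0.34) or 2.04-fold. The second probe, A_55_P2736230, gave 4.79, 3.85 and 4.08 against 6.10, 4.99 and 4.90, again without overlap, and a difference of -1.09 (SE 0.38). Within slide 1 the differences were -0.16 and -0.11, and without labelled db/db replicate 1 they were -0.70 and -0.71. The values within slide 1 rest on 1 array of each group, and on the other slides slide and group cannot be told apart. The part of the slide in the Apoe difference was not tested.

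Apob, the scaffold of triglyceride-rich particles, had reference levels of 2.37, 3.24 and 2.60 in the arrays labelled db/m and 2.39, 3.49 and 2.97 in the arrays labelled db/db. The ranges of the groups overlapped almost wholly. The differences were -0.21 (SE 0.33) and -0.18 (SE 0.28) on its 2 probes, and within slide 1 they were -0.60 and -0.21. With single arrays left out, the first lay between -0.49 (without labelled db/db replicate 1) and 0.06 (without labelled db/db replicate 2). Apoa1, the HDL scaffold, was not well above background on any of the 6 arrays, so no fold is given for it.

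Apoh (beta2-glycoprotein I), a plasma protein that binds phospholipids, had levels of -0.86, -1.59 and -1.04 in the arrays labelled db/m and -0.39, -0.66 and -0.69 in the arrays labelled db/db. The groups did not overlap, with a gap of 0.17. The difference was -0.59 (SE 0.21), it was -0.17 within slide 1 and -0.37 without labelled db/m replicate 2.

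Lpl, the enzyme that Apoc2 activates, was covered by 6 probes, all tested. On the reference probe the levels were 5.06, 3.92 and 4.49 in the arrays labelled db/m and 4.84, 4.53 and 4.48 in the arrays labelled db/db. The groups overlapped, and the arrays labelled db/m held both the highest and the lowest level. The difference was -0.13 (SE 0.28), and it changed sign to 0.04 after quantile normalization and in the deposited matrix and to 0.16 without labelled db/m replicate 2. The 4 other probes whose groups overlapped had differences from -0.20 to 0.03. The exception was A_55_P2715720, with levels of -0.61, -0.62 and -0.82 in the arrays labelled db/m against -1.04, -1.89 and -0.85 in the arrays labelled db/db, and a difference of 0.58 (SE 0.27), which was 0.26 without labelled db/db replicate 2. The gap between the groups on this probe was 0.03, and its target at chr8:71413311-71413370 was assigned to another transcript than that of the reference probe. Within slide 1 all 6 Lpl probes had higher levels in labelled db/m, by 0.24 to 0.76.

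Apoe, Apoc1 and Apoc2 lie in 1 cluster on chromosome 7, and their levels varied alike between arrays of the same group. On the files' mm9 coordinates the Apoc1 probe lies 6.88 kb and the Apoc2 reference probe 24.7 kb from the Apoe reference probe. Labelled db/db replicate 1 was the highest of the 6 arrays on all 5 probes of the 3 genes and also for Apom and Apoh. Labelled db/m replicate 1 was the highest array of its group on the same 5 probes and for Apoh. Over the 6 arrays, Pearson's r with Apoe was 0.99 for Apoc1 and 0.976 for Apoc2. After the group means were taken out it was 0.982 and 0.941. For Apoh, which lies on chromosome 11, the values were 0.912 and 0.781, and for Apom 0.837 and 0.665. With the group means taken out, Apoh had an r of 0.591 with the Apoc2 reference probe, 0.871 with the second Apoc2 probe and 0.743 with Apoc1. These are descriptions over 6 arrays that share slides and the group difference. Apoc4, the other gene of the cluster, was nowhere well above background.

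**Figure D3:**
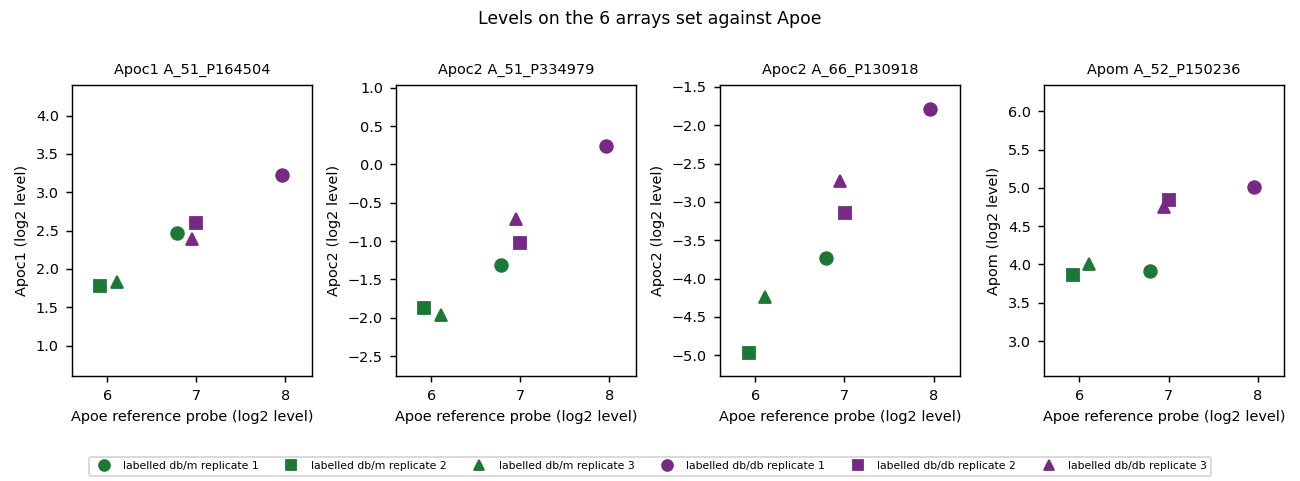
Log2 levels of Apoc1, of both Apoc2 probes and of Apom against the log2 level of the Apoe reference probe, with 1 point for each of the 6 arrays. The Apoc1 and Apoc2 points lie along a line with labelled db/db replicate 1 at the top, and the Apom points fall into the 2 groups.

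Genes with a tested probe within 100 kb were compared with the members at the same sites. Around the chromosome 7 cluster there were 8 such genes, and on their reference probes 0 were lower and 0 higher at an unadjusted limma p under 0.05 (all probes tested: 11.1% lower and 6.62% higher). Their differences on these probes ran from -0.18 to 0.46. A dimmer probe of Bcam, at 0.95 (SE 0.41), and one of Cblc, at -0.34 (SE 0.11), lay outside this range. Tomm40, the neighbour of Apoe, differed by -0.05 (SE 0.12) on its reference probe, and its 3 dimmer probes gave -0.45 (SE 0.12), -0.53 (SE 0.12) and 0.12 (SE 0.21). Around Apom, on chromosome 17, there were 19 genes with differences from -0.24 to 0.69, of which 1 was higher and 0 were lower. The higher one was D17H6S53E. Abhd16a was at -0.22 (SE 0.11) on its reference probe and at -0.52 (SE 0.11), -0.45 (SE 0.12) and 0.33 (SE 0.30) on 3 dimmer ones.

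**Figure D4:**
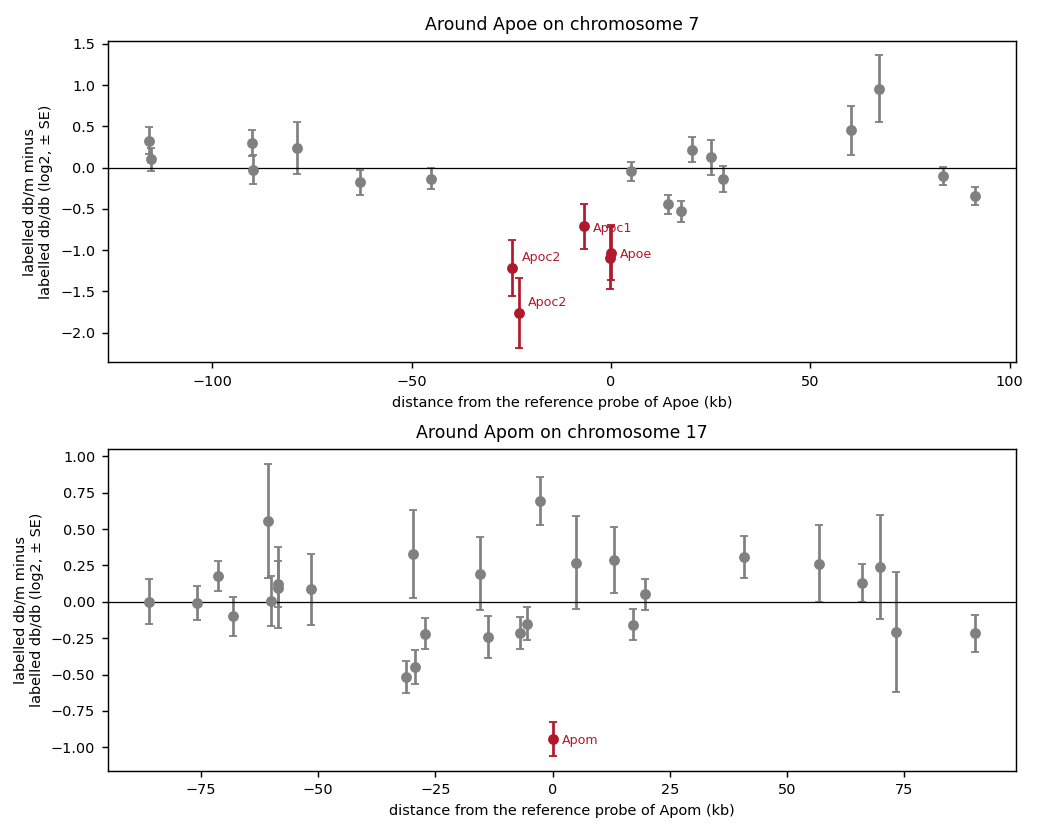
Difference between labelled db/m and labelled db/db on the log2 scale, with bars of 1 SE, for every tested probe within 100 kb of the members, against its distance in kb from the reference probe of Apoe or of Apom. Members are in red, and the Apom point at -0.94 is the lowest of its panel.

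The genes whose levels followed those of Apom most closely over the 6 arrays, with 1 probe per gene among 16458 genes, were Lancl1 (r = 0.997), Aldh1b1 (r = 0.994), Exoc6, 2610507B11Rik and 2410006H16Rik (r = 0.993, 0.993 and 0.992). For Apoc2 they were Gm10621 (r = 0.994), Rpl3 (r = 0.988), 2410022M11Rik (r = 0.987), Abl1 (r = 0.987) and Hsd3b1 (r = 0.985). Apoe ranked 13 and Apoc1 ranked 110 for Apoc2. Each gene entered with its probe of highest r, which was not always its reference probe, so genes with more probes had more chances of a high rank. Against Apom, Apoc2 entered with its second probe (r = 0.900), whereas its reference probe had r = 0.864. The 6 arrays behind these values share the group difference and the slides.

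The other genes of lipoprotein metabolism were taken from a list of 71 genes arranged by role, of which 54 were tested. On the reference probe, 4 of the 54 (7.41%) were lower and 3 (5.56%) higher in labelled db/m at an unadjusted limma p under 0.05. Among all probes tested the shares were 11.1% and 6.62%, close to those of the list. The order of the shares depended on the setting. Without labelled db/m replicate 2, 15 (27.8%) were lower and 9 (16.7%) higher, beside 14% and 9.14% of all probes, and under median centring 18 (33.3%) were lower, beside 19.5%. The median difference of the 54 genes was -0.19 on the log2 scale, beside -0.04 for all probes tested and -0.15 for the 7472 brightest. No listed gene passed after Benjamini-Hochberg adjustment in limma over all probes, the lowest adjusted p being 0.241. The same held for all 29889 probes, of which 0 passed the adjustment and 3316 were lower and 1978 higher at an unadjusted p under 0.05. The methods' t-test gave 0 after adjustment, and eBayes with a mean-variance trend and robust variances gave 1.

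Lipases and their regulators held the lowest unadjusted p of the list. Gpihbp1, the endothelial protein that carries lipoprotein lipase to the capillary lumen, had levels of 0.79, 0.66 and 1.03 in the arrays labelled db/m and 1.57, 1.56 and 1.36 in the arrays labelled db/db. The groups did not overlap, and the difference was -0.67 (SE 0.14, limma adjusted p = 0.241). Within slide 1 it was -0.58. Of the 7 tested genes of this role, 1 (14.3%) passed the unadjusted threshold, beside 11.1% of all probes lower. A difference below 0 was present in 6, beside 34.8% of the 7473 dimmest and 77.8% of the 7472 brightest of all probes. Of the 6 endothelial markers, all tested, Gpihbp1 was the 1 that passed.

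Among lipoprotein receptors and adaptors, 15 of 16 genes were tested, and 1 fell and 1 rose at the unadjusted threshold (6.67% each), beside 11.1% and 6.62% of all probes. Sorl1, a sorting receptor that binds Apoe, differed by 0.51 (SE 0.19, limma adjusted p = 0.257), with overlap, and by 0.59 within slide 1. Megalin (Lrp2) and cubilin (Cubn), which take up filtered lipoproteins in the proximal tubule, were at -0.28 (SE 0.14) and -0.17 (SE 0.17) and did not pass. The 4 genes of lipoprotein assembly all had a difference below 0, beside 34.8% of the 7473 dimmest and 77.8% of the 7472 brightest of all probes. Of the 4, 1 passed (25%, beside 11.1% of all probes lower). This was Tm6sf2, which acts in lipid loading of Apob particles, at -0.37 (SE 0.14, limma adjusted p = 0.257) and at -0.54 within slide 1.

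Of the transcription factors of apolipoprotein genes, 10 of 12 were tested and 1 passed (10%, beside 11.1% of all probes lower). Of the other apolipoproteins, 7 of 16 were tested, and at the unadjusted threshold 0 fell and 2 (28.6%) rose, beside 11.1% and 6.62% of all probes. These were Apol9a at 0.55 (SE 0.18) and Apol9b at 0.51 (SE 0.19), closely similar paralogues whose probes may share signal. Within slide 1 they differed by 0.15 and 0.41. Apoa4, which lies beside Apoa1 and Apoc3, differed by 0.41 (SE 0.33) with overlap, and Apoa5 was nowhere well above background. The 4 tested genes of HDL formation and the 7 of sphingosine 1-phosphate handling, the partners of Apom, included 0 that passed in either direction. Over the 18 alternatives to the processing, the unadjusted call of Gpihbp1 held in 17 and that of Apol9a in 12. The call of Sorl1 held in 11 and those of Apol9b and Tm6sf2 in 10 each. These 5 genes were named because they passed in the main fit. None changed sign, but several alternatives, such as other filters and other tests, leave the difference as it was by construction. Its sign could not change there.

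**Figure D5:**
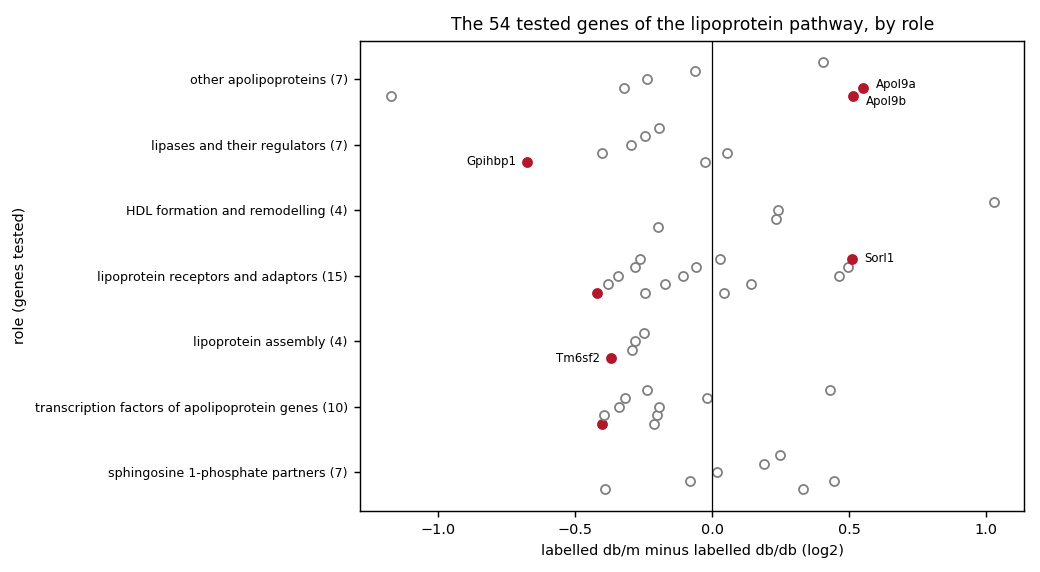
Difference between labelled db/m and labelled db/db on the log2 scale for the 54 tested genes of the lipoprotein pathway, 1 point per gene on its reference probe, arranged by role. Filled points are the 7 genes with an unadjusted limma p under 0.05, 4 lower and 3 higher, and the 5 described in the text carry their names.

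Markers of the cells that make or take up lipoproteins were set beside these values. All 13 proximal tubule markers were tested and 0 passed the unadjusted threshold, and 11 of them had a difference below 0, with a median of -0.22. All 13 belong to the 7472 brightest probes, of which 77.8% had a difference below 0, with a median of -0.15. Their summed level was 1934 to 2763 times the 75th percentile in the arrays labelled db/m and 2485 to 2787 in the arrays labelled db/db. Of 12 hepatocyte markers, 8 were tested, 3 were lower and 1 was higher at the unadjusted threshold, beside 11.1% and 6.62% of all probes. In 7 of the 8 the difference was below 0, with a median of -0.61. The lower ones were the fibrinogen genes Fga at -0.69 (SE 0.22), Fgb at -1.04 (SE 0.18) and Fgg at -1.07 (SE 0.20), which differed within slide 1 by -0.72, -0.86 and -1.0. Itih3 was the higher one, at 0.34 (SE 0.13) without overlap and at 0.23 within slide 1. The liver markers Ahsg, Hpx and Serpina3k were nowhere well above background, and the summed level of the list was 179.7 to 300.5 against 264.6 to 371.4. Between 96.2% and 98.5% of that sum came from Serpina1a and Serpina1b. The rest of the list summed to 4.48 to 6.46 on the labelled db/m arrays and to at least 8.07 on each labelled db/db array. Fgg was the brightest marker of this rest, with mean log2 levels of 1.48 in labelled db/m and 2.55 in labelled db/db. The rest of the sum is therefore not separate from the Fgg difference given above. Of the 11 macrophage markers, cells that also express Apoe, all were tested, 4 were higher and 0 were lower, with a median difference of 0.22, and the summed level was 21.3 to 34.7 in the arrays labelled db/m against 16.9 to 20.5 in the arrays labelled db/db. Of 9 adipocyte markers, 6 were tested and 1 was higher, Fabp4, while Adipoq and Cfd were nowhere well above background. The part of any cell type in the differences of the members was not tested.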

How the data were processed

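Renal cortex was measured in 3 samples labelled db/m and 3 labelled db/db on 1-colour arrays. The authors extracted intensities with Agilent Feature Extraction 10.7.1.1, per the submitters' processing notes, and deposited the processed, mean and background intensity of 62976 spots per array on mm9 coordinates. A deposited log2 matrix of the same arrays held nearly identical distributions in every column (column medians of 6.11). It was used as an alternative, and its normalization is not given in the sources used here.

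The analysis used R 4.3.3 and limma 3.58.1. The 3671 control spots and all outlier spots were dropped, spots of a probe were averaged (300 probes had several), and 135 probes flagged on every spot of an array were dropped. Levels are log2 of the processed intensity minus the array's 75th percentile. Probes well above background on each array of a group were fitted with lmFit and eBayes, with Benjamini-Hochberg adjustment over 29889 probes. No probe was saturated. The number of arrays limits the precision, and an exact test of 3 against 3 arrays cannot go below p = 0.1 (two-sided). Gene names came from the scanner output or, for 32994 probes, from RefSeq by accession. The gene names of 71 spots differed in the file of labelled db/m replicate 1, and those of labelled db/db replicate 1 were used.

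The members, the gene lists and the rule for naming genes were chosen with earlier results of these data known. Every member was named with all its probes, and other probes are given where they disagree in sign or by over 0.5 log2 units. Of the pathway lists, genes with an unadjusted p under 0.05 were named, with Apoc4, Apoa4 and Apoa5, except that 2 of them are counted but not reported here by name. The fit was tested on simulated data with 200 changed probes. Alternatives were quantile normalization, median centring, normexp (offset 50), the deposited matrix, other filters, other tests, slide and replicate blocks, the mean over a gene's probes, leaving out each array, and, added after the data were seen, dim arrays raised to the lowest signal above background.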

Additional observations from a re-analysis of the deposited data

How the results depend on the processing

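Of the 18 alternatives, 11 could change the difference of Apom or Apoh and 12 that of Apoc2 or Apoe, the others leaving it as it was by construction, and all 4 genes were below 0 in each of these. Apom was -0.79 after quantile normalization, -1.13 under median centring, which shifted all probes' median by -0.18, and -0.77 in the deposited matrix, and it lay between -1.0 and -0.87 with single arrays left out. Apoc2 was -0.60 with the slide as a block, which rests on the 2 arrays of slide 1, and between -1.48 and -0.85 with single arrays left out. The slide block gave 0.08 for Apoc1, -0.16 for Apoe, -0.17 for Apoh, 0.54 for Apoc3 and 0.59 for Lpl. For Apob it gave -0.60, further below 0 than the -0.21 of the main fit, and for Apod -0.03. The cause of these shifts was not tested.

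The count of lower pathway genes was 18 under median centring, 7 with trend and robust variances, 7 with the mean over all probes of a gene and 2 with the slide block. The count of higher genes was 0 under median centring, the ordinary t-test and the slide block. With single arrays left out, 2 to 15 pathway genes were lower (15 without labelled db/m replicate 2) and 0 to 9 higher (0 without labelled db/m replicate 3 and 9 when replicate 2 was left out). Over all probes, 5829 were lower and 899 higher under median centring, and 1588 were lower with the slide block. The ordinary t-test gave 3406 lower and 1216 higher. With single arrays left out, 1241 to 4170 were lower (1241 without labelled db/m replicate 3) and 1030 to 3206 higher (3206 without labelled db/db replicate 3). After adjustment, 120 probes passed without labelled db/db replicate 3 and 90 without labelled db/m replicate 2.

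The replicate numbers of the labels were not treated as pairs, since deviations of same-numbered arrays correlated at 0.35, 0.15 and 0.05, and 4 of 6 arrays correlated best with their own number. With the replicate block, 4234 probes were lower and 2405 higher, 6 pathway genes were lower and 4 higher, and the SE was 0.11 for Apom and 0.16 for Apoc2, whose differences of -0.94 and -1.22 such a block cannot change.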
